A study of Bos taurus with 8 samples.

Results

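Trophoblast lineage factors were followed in bovine embryonic stem cells (bESCs), as 10 genes chosen by name from the 32637 genes with values: the transcription factors CDX2, GATA2, GATA3, TFAP2A, TFAP2C, ELF5, ELF3, DLX3 and ASCL2, and the keratin KRT7. RNA was sequenced from 4 lines of XX genotype (A, C, D and E), each derived from a blastocyst in NBFR medium (with FGF2 and the WNT inhibitor IWR-1) and cultured in 5% O2. Each line was sequenced on MEF (irradiated mouse embryonic fibroblasts, a feeder layer) at passage 15 to 17, and again after transition to feeder-free culture on vitronectin at passage 20 to 22. This gave 4 libraries per condition. The record names of both conditions give the medium as NBFRA, whereas the paper's methods give Activin A as an addition for feeder-free culture, so matrix, passage and possibly medium changed together and cannot be told apart. Per the paper, reads of a MEF library were also subtracted from samples on MEF, a processing step that goes with the matrix. Whether the deposited counts include that step was not tested. The labels put all libraries in batch 1.

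The first lineage decision of the mammalian embryo separates the trophectoderm, the outer epithelium that builds the placenta, from the inner cell mass that gives rise to ESCs. Active YAP and TAZ with TEAD4 switch on trophectoderm genes, among them CDX2 and GATA3, and GATA2, TFAP2A and TFAP2C act with them in trophoblast. ELF5, ELF3, DLX3 and ASCL2 serve in later trophoblast, and KRT7 is a keratin of simple epithelia that is widely used as a trophoblast marker. None of the genes is specific to trophoblast: TFAP2A also acts in surface ectoderm and neural crest, TFAP2C in germ cells, and GATA3 and KRT7 in amnion and other epithelia.

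Total counts on genes ranged from 44268717 to 54296425 in 7 libraries and reached 102351560 in the feeder-free library of line D. Levels are given as CPM, counts scaled to library size and by TMM factors, with means ± SD over the 4 libraries of a condition (n = 4), and SE stands for the standard error of a log2 fold change. Of the 10 genes, 7 passed edgeR's filter on low counts and were tested among 15744 genes. To be called between matrices, a gene had to have an adjusted P-value (Benjamini-Hochberg) below 0.05 and to differ by 1.5 times or more. Counts from 1 to 10 were even in 71.3 to 75.8 percent of cases per library, and whether reads or pairs were counted is not stated, so small counts may carry less information than their size. The 11 pluripotency markers found in the files came in sum to 5969 to 6569 CPM on MEF and 5102 to 5685 CPM in feeder-free conditions, although DPPA4 was at 0.0385 to 0.361 CPM, and POU5F1 had 2047 ± 245 CPM on MEF and 1849 CPM without feeders. Of these 11, 8 had a log2 fold change (feeder-free to MEF) below 0, with a median of -0.30. On condition alone 0 were called, and 7 had an unadjusted P-value under 0.05, as did 21.6 percent of all tested genes. With line as a further term, 1 of the 11, OTX2, was called as lower (log2 fold change -0.66, edgeR adjusted p = 0.00495), against 4.53 percent of all tested genes.

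Except for KRT7, the trophoblast factors drew few reads or none on both matrices. KRT7 made up 78.9 to 96.5 percent of the counts of the 10 genes in each library, a share of reads that also depends on transcript length. The other 9 genes came in sum to 3.55 to 5.08 CPM on MEF and 2.47 to 5.80 CPM in feeder-free conditions. CDX2 had no read, ELF5 at most 2 counts and ASCL2 at most 28 in any library. Only KRT7, ELF3, GATA2 and DLX3 had at least 10 counts in all 8 libraries.

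In feeder-free conditions compared with MEF, 0 of the 7 tested genes were called by edgeR's quasi-likelihood test on condition alone, where 1.73 percent of all tested genes were. KRT7 and GATA2 had an unadjusted P-value under 0.05, as did 21.6 percent of all tested genes. The likelihood ratio test of edgeR called 1 of the 7, DESeq2 called 2 and limma-voom 0. The same lines were grown in both conditions, and with line as a term (the paired fit, or replicate block) 2 of the 7 were called, KRT7 as higher and GATA2 as lower, against 10 percent of all tested genes, of which 5.52 percent were higher and 4.53 percent lower in feeder-free conditions. The median log2 fold change of the 7 was 0.19, with 5 above and 2 below 0 and a range of -1.43 to 1.49, beside a median of 0.01 over all tested genes.

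**Figure D1:**
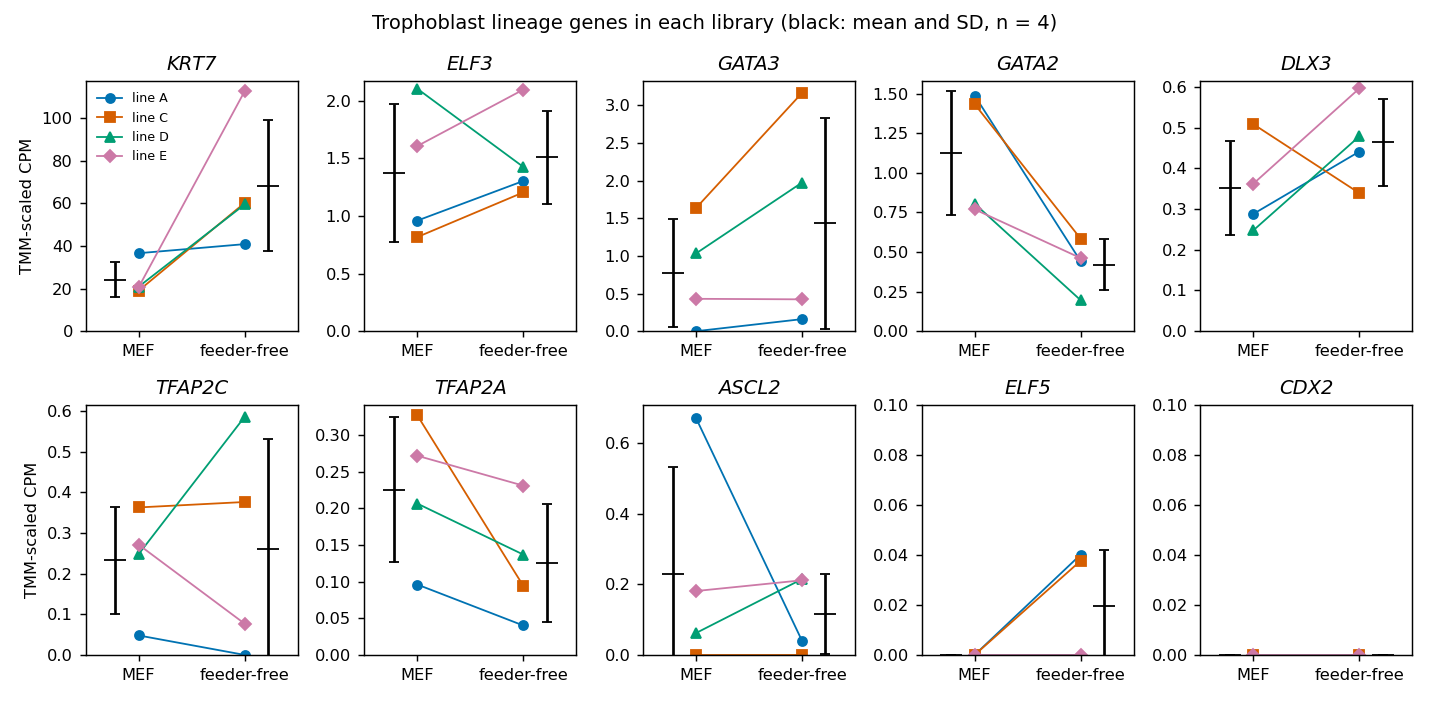
TMM-scaled CPM (linear axes from 0, each with its own scale) of the 10 trophoblast lineage genes on MEF and in feeder-free conditions, one line per bESC line, with the mean and SD of 4 libraries in black beside each condition. KRT7 was higher and GATA2 lower in feeder-free conditions in all 4 lines, GATA3 kept lines C and D above E and A, and CDX2 stayed at 0.

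KRT7 encodes a type II keratin, a subunit of the intermediate filaments of simple epithelia, and lies in the ARS-UCD2.0 assembly on chromosome 5, positions 27674858 to 27688924 (gene ID 535697). On MEF it had 36.6 CPM in line A, 19.0 in line C, 20.9 in line D and 20.6 in line E. In feeder-free conditions it had 40.9 CPM in line A, 60.3 in line C, 59.5 in line D and 113 in line E. Every feeder-free library lay above every MEF library, as was the case for 6.21 percent of all tested genes, and 20.2 percent were higher in 4 of 4 lines, although both libraries of line A lay close to each other. In such bulk samples a change in the number of cells of a type and a change in RNA per cell cannot be told apart. Line A changed by 1.12 times, and lines D, C and E by 2.85, 3.17 and 5.48 times. The means were 24.3 ± 8.28 CPM on MEF and 68.3 ± 30.9 CPM in feeder-free conditions, or a log2 fold change of 1.49 (SE 0.33, 95% interval 0.76 to 2.23, edgeR adjusted p = 0.0509). In the paired fit the log2 fold change was 1.46 (SE 0.30) and the adjusted p 0.0129 from edgeR. With the feeder-free library from line A left out, KRT7 also passed in the unpaired fit (log2 fold change 1.67, edgeR adjusted p = 0.0365). It did not pass there with any other single library left out, at an edgeR adjusted p of 0.0807 to 0.126. Without both libraries of line C, KRT7 did not pass in the paired fit (edgeR adjusted p = 0.0559). With counts halved, an alternative chosen after seeing the even counts, KRT7 passed (edgeR adjusted p = 0.0470), beside 2.55 percent of tested genes called, 1.14 percent as higher and 1.41 percent as lower.

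The genes whose levels followed those of KRT7 most closely over the 8 libraries, out of 15737 other tested genes, were PRR7, CLTB and LINGO1, with Pearson's r of 0.967, 0.963 and 0.958 for log2 CPM. The 8 libraries share 4 lines and 2 conditions, and 46 genes had an r above 0.9, so the likeness is a description of these libraries.

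GATA2, a zinc finger factor of trophoblast that is also central to blood and endothelial development, moved the other way. It lies on chromosome 22 from 59347411 to 59355012 (gene ID 506809). On MEF it had 62, 79, 39 and 34 counts in lines A, C, D and E, or 1.49, 1.43, 0.805 and 0.770 CPM. In feeder-free conditions it had 22, 31, 20 and 24 counts, or 0.441, 0.584, 0.195 and 0.462 CPM. All 4 feeder-free libraries lay below all 4 MEF libraries, which held for 8.35 percent of tested genes in that direction. The level in feeder-free conditions was lower by 3.37 times in line A, 2.46 in line C, 4.12 in line D and 1.67 in line E. GATA2 went from 1.12 ± 0.390 CPM to 0.421 ± 0.163 CPM, a log2 fold change of -1.43 (SE 0.45, 95% interval -2.43 to -0.42, edgeR adjusted p = 0.111). The paired fit called it at -1.45 (edgeR adjusted p = 0.0447), and lost the call without line A, C or D, at an adjusted p of 0.104, 0.144 and 0.191.

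Fibroblast markers, checked beside GATA2, moved in both directions. Of 12 fibroblast genes, 11 were tested and 0 were called on condition alone. Of the 11, 7 lay above 0 and 4 below, with a median log2 fold change of 0.52. An unadjusted P-value under 0.05 was found for 4, as for 21.6 percent of all tested genes. In the paired fit COL1A2 and PRRX1 were called as lower, and COL3A1 and POSTN as higher. Of all tested genes, 4.53 percent were called as lower and 5.52 percent as higher in that fit. COL1A2, PRRX1 and TWIST2, singled out after their values were seen, came in sum to 1.74 to 7.93 CPM on MEF and 0 to 0.781 CPM in feeder-free conditions, and TWIST2 was at 0 in all 4 feeder-free libraries. The whole list, dominated by VIM and COL1A1, which are not specific to fibroblasts, had 1135 to 1552 CPM on MEF and 802.8 to 2443 CPM in feeder-free conditions. The part of feeder-derived reads in the level of GATA2 was not tested.

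**Figure D2:**
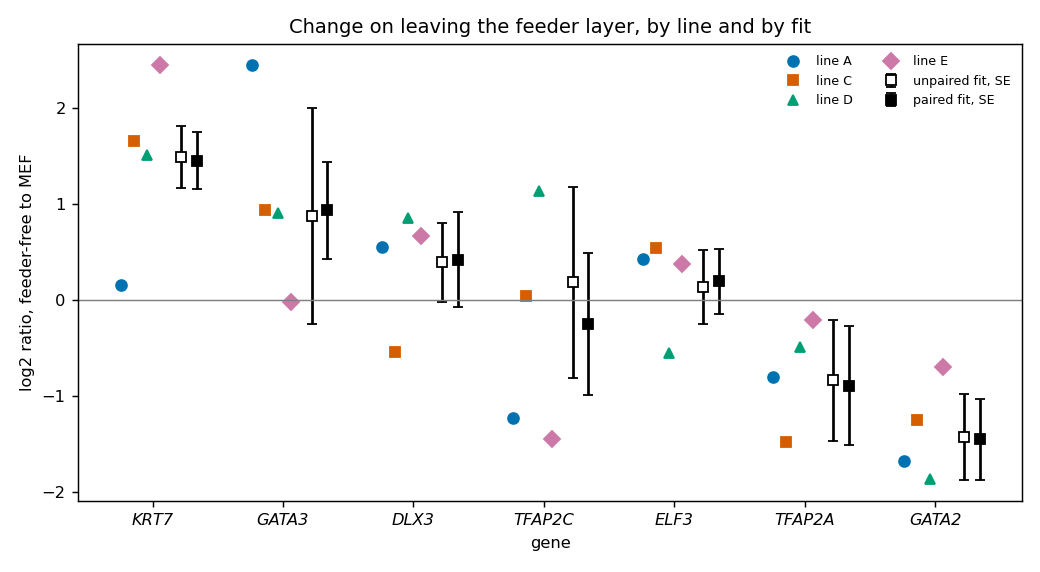
Log2 ratio of feeder-free to MEF for each of the 7 tested genes, with one coloured symbol per line (from log2 CPM with a prior count of 2) and the fitted log2 fold change with its SE from the unpaired and the paired fit. KRT7 lay above 0 and GATA2 and TFAP2A below 0 in 4 of 4 lines, while the lines disagreed for TFAP2C, and pairing narrowed the error of GATA3 from 1.13 to 0.51.

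GATA3 differed among lines more than between matrices. This zinc finger factor, one of the earliest trophectoderm regulators, lies on chromosome 13 from 15904672 to 15935245 (gene ID 505169). The long noncoding RNA LOC112449253 lies within this span, and whether strand was used in counting is not stated. Its counts were 0 in line A, 90 in line C, 50 in line D and 19 in line E on MEF. In feeder-free conditions they were 8, 168, 202 and 22, with the 202 of line D drawn from the deepest library. The CPM on MEF was 0, 1.63, 1.03 and 0.430 and in feeder-free conditions 0.160, 3.16, 1.97 and 0.423, in the same order of lines. Line C was highest, followed by D, E and A, on both matrices.

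The mean log2 CPM of the 2 libraries of a line was 1.21 for C, 0.55 for D, -1.11 for E and -3.58 for A. The test of differences among lines, in a fit with condition and line, called GATA3 (edgeR adjusted p = 0.0150). It was the only one of the 7 tested genes called by that test, or 14.3 percent, against 11.8 percent of all tested genes, so the share was near the background. The call was lost without either library of line C, at an adjusted p of 0.0555 without the one on MEF and 0.0709 without the feeder-free one. Between the matrices, GATA3 had 0.774 ± 0.713 CPM on MEF and 1.43 ± 1.41 CPM in feeder-free conditions, and the log2 fold change of 0.88 (SE 1.13, edgeR adjusted p = 0.712) was within the spread between lines. It was 0.15 without the feeder-free library from line C and 1.54 without its MEF library. GATA3 was higher in 3 of 4 lines, with a log2 ratio of -0.02 in line E, and the paired fit did not call it either (edgeR adjusted p = 0.233).

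The AP-2 factors TFAP2A and TFAP2C, which bind GC-rich sites in trophoblast, epidermal and neural crest genes, had low counts, at most 60 in a library. TFAP2C, on chromosome 13 from 59366398 to 59375952 (gene ID 511317), had 2, 20, 12 and 12 counts on MEF and 0, 20, 60 and 4 in feeder-free conditions in lines A, C, D and E. Line A was lowest in both conditions, at 0.0480 and 0 CPM. The groups overlapped, with 0.233 ± 0.133 CPM on MEF and 0.260 ± 0.271 CPM in feeder-free conditions, and the log2 fold change of 0.19 (SE 0.99, edgeR adjusted p = 0.944) turned to -0.24 in the paired fit. Its difference among lines had an unadjusted P-value under 0.05 but an adjusted p of 0.147 from edgeR's test.

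TFAP2A, on chromosome 23 from 45615045 to 45637794 (gene ID 505849), had 4, 18, 10 and 12 counts on MEF and 2, 5, 14 and 12 in feeder-free conditions in the same order. Scaled for depth, it was lower in feeder-free conditions in 4 of 4 lines, from 0.225 ± 0.0992 to 0.126 ± 0.0806 CPM, and 20.7 percent of all tested genes were lower in all lines. Its log2 fold change was -0.83 (SE 0.63, 95% interval -2.25 to 0.58, edgeR adjusted p = 0.493), and the groups overlapped.

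ELF3 and DLX3 were present at low levels that the change of matrix did not move beyond the error. ELF3, an ETS factor of epithelia, on chromosome 16 from 80502941 to 80508015 (gene ID 508503), had 0.960, 0.817, 2.11 and 1.61 CPM on MEF in lines A, C, D and E. In feeder-free conditions it had 1.30, 1.21, 1.43 and 2.10 CPM. Both groups overlapped, and line D alone was lower in feeder-free conditions. The log2 fold change was 0.14 (SE 0.39, 95% interval -0.73 to 1.00, edgeR adjusted p = 0.885).

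DLX3, a homeobox factor needed for placental and skin development, lies on chromosome 19 from 36662426 to 36667620 (gene ID 784366) and had 12 to 28 counts on MEF and 18 to 49 in feeder-free conditions. It was at 0.352 ± 0.115 CPM on MEF and 0.464 ± 0.106 CPM in feeder-free conditions, higher in 3 of 4 lines and lower in line C. The log2 fold change of 0.39 (SE 0.41, 95% interval -0.53 to 1.32, edgeR adjusted p = 0.636) leaves room for changes in either direction. Among the 7 tested genes DLX3 varied least among lines, with line means of log2 CPM that spanned 0.39, against 4.78 for GATA3 and 2.94 for TFAP2C.

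**Figure D3:**
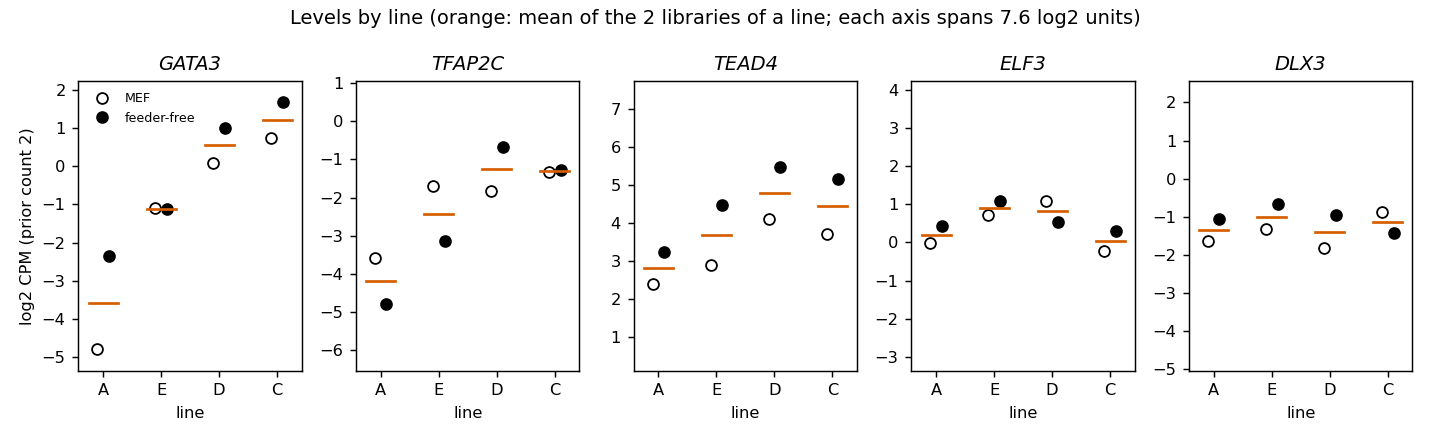
Log2 CPM (prior count of 2) of GATA3, TFAP2C, the trophectoderm regulator TEAD4, ELF3 and DLX3 in the MEF (open) and feeder-free (filled) library of each line, with the mean of both in orange. Lines are ordered by the level of GATA3, which ran from -3.58 in A to 1.21 in C. TFAP2C and TEAD4 were lowest in line A as well, whereas the line means of DLX3 spanned 0.39.

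CDX2, the homeobox factor that maintains the trophectoderm programme, had 0 counts in each of the 8 libraries. It lies on chromosome 12 from 32083554 to 32089291 (gene ID 618679). A count of 0 allows a level of up to 0.0293 CPM in the deepest library and 0.0720 CPM in the shallowest (3 counts each, covering counting error only). Of all genes with values, 28.7 percent had a count of 0 in all 8 libraries.

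ELF5, an ETS factor of trophoblast stem cells and mammary epithelium, on chromosome 15 from 65019518 to 65052702 (gene ID 539420), had 2 counts in the feeder-free libraries of lines A and C and 0 in the other 6 libraries. These counts are under the limit that a count of 0 allows, and no fold change is given.

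ASCL2, a basic helix-loop-helix factor needed for the placenta and imprinted in mouse trophoblast, lies on chromosome 29 from 49311817 to 49313692 (gene ID 664650). It had 28, 0, 3 and 8 counts on MEF and 2, 0, 22 and 11 in feeder-free conditions in lines A, C, D and E. Line C had no read in either condition, line A had the highest level on MEF at 0.672 CPM, and lines D and E had 0.215 and 0.212 CPM in feeder-free conditions. The means of 0.229 ± 0.305 and 0.117 ± 0.113 CPM did not differ beyond the spread (two-sided exact permutation test, p = 0.743, where no value under 0.0286 can be reached).

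Relatives of these factors were also measured, as 22 other members of the same gene families, of which 8 were tested and 0 called on condition alone. The median log2 fold change of those 8 was 0.10. CDX4, a paralogue of CDX2 known from posterior mesoderm, had 0.0960, 0.309, 0.599 and 0.0905 CPM on MEF in lines A, C, D and E, and 0.846 to 1.02 CPM in feeder-free conditions, so the groups did not overlap. Of all tested genes, 6.21 percent were higher in feeder-free conditions without overlap. CDX4 was called as higher in the paired fit (log2 fold change 2.02, edgeR adjusted p = 0.0408) but not on condition alone (adjusted p = 0.132). ASCL4 had 0.933 ± 0.278 CPM on MEF and 0.294 ± 0.149 CPM in feeder-free conditions, and was called as lower in the paired fit (log2 fold change -1.78, edgeR adjusted p = 0.0473) but not on condition alone (0.104). In the paired fit 5.52 percent of all tested genes were called as higher and 4.53 percent as lower. ELF2, a broadly expressed ETS factor, had 37.3 ± 1.81 and 39.3 ± 3.85 CPM, and DLX4 had 1.12 ± 0.869 and 1.67 ± 0.497 CPM, neither called in either fit. In the other 2 families the best covered paralogues were at trace levels: GATA6 had at most 0.352 CPM, and TFAP2B was detected in the MEF library of line D alone, at 0.495 CPM.

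Other regulators of trophectoderm identity included 6 genes that rose in the paired fit. Of 26 such genes 20 were tested and 0 called on condition alone, where 1.73 percent of all tested genes were. An unadjusted P-value under 0.05 was found for 7, as for 21.6 percent of all tested genes. In the paired fit 6 were called, all as higher, against 5.52 percent of tested genes called as higher in that fit, and their median log2 fold change on condition alone was 0.10 with 11 above and 9 below 0. These were KLF5, VGLL3, TEAD4, EOMES, TEAD3 and ID2, named after their values were seen. KLF5, a zinc finger factor shared by trophectoderm and naive pluripotent cells, rose in the paired fit by a log2 fold change of 2.11 (edgeR adjusted p = 0.00151). It had 1.86 to 6.44 CPM on MEF and 8.50 to 34.1 CPM in feeder-free conditions.

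TEAD4, the DNA-binding partner of YAP and TAZ upstream of CDX2 and GATA3, overlaps the noncoding RNA LOC132345350. On MEF it had 5.21, 13.2, 17.3 and 7.47 CPM in lines A, C, D and E, and in feeder-free conditions 9.37, 35.8, 43.9 and 22.2 CPM. Lines C and D lay above E and A on both matrices, as for GATA3, and the log2 fold change of 1.31 in the paired fit had an adjusted p of 0.00151 from edgeR. On condition alone the groups overlapped and the adjusted p was 0.151, while the test of differences among lines gave an adjusted p of 0.00245 from edgeR. The coactivator YAP1 had 286 ± 27.1 CPM on MEF and 193 ± 23.5 CPM in feeder-free conditions, lower in 4 of 4 lines. Its log2 fold change of -0.57 (edgeR adjusted p = 0.0549) was short of the fold change threshold, also in the paired fit. ARID3A, a trophectoderm regulator, had 130 ± 33.0 and 165 ± 30.8 CPM and was not called in either fit. GCM1, the master factor of syncytiotrophoblast in mouse and human, had a count of 0 in all libraries, and HAND1 had at most 0.226 CPM.

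**Figure D4:**
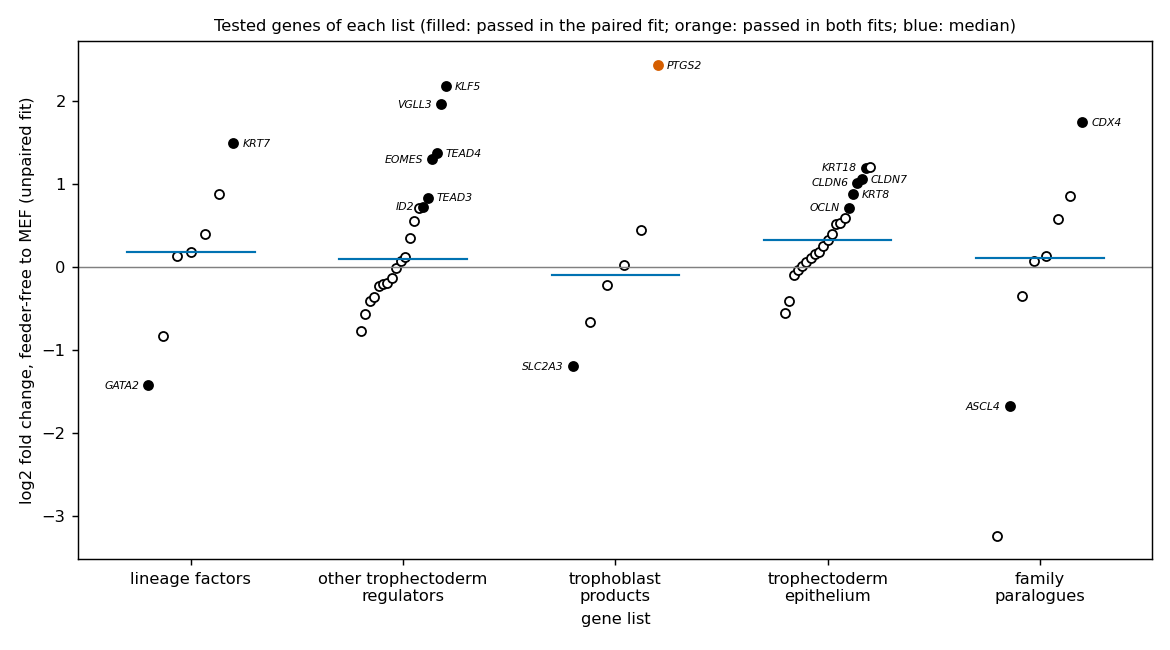
Unpaired log2 fold change (feeder-free to MEF) of every tested gene in the list of lineage factors and in the other regulators, trophoblast products, trophectoderm epithelium genes and family paralogues, sorted within each list, with the list median in blue. Filled symbols passed in the paired fit and the orange one, PTGS2 at 2.43, in both fits. The medians of the 5 lists lay between -0.09 and 0.33.

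Genes of the trophectoderm epithelium were measured beside KRT7, with 21 of 24 tested. None was called by edgeR on condition alone, where 7 had an unadjusted P-value under 0.05, as did 21.6 percent of all tested genes, and 17 of the 21 lay above 0 with a median of 0.33. In the paired fit 5 were called, all as higher, in which direction 5.52 percent of all tested genes were called: KRT8, KRT18, CLDN6, CLDN7 and OCLN. KRT8, the type II partner of KRT18 in simple epithelia, had 534, 733, 910 and 686 CPM on MEF and 573, 1708, 2041 and 944 CPM in feeder-free conditions in lines A, C, D and E. The groups overlapped and line A changed least, as for KRT7, and the adjusted p was 0.199 on condition alone and 0.0256 in the paired fit from edgeR.

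Most genes listed as products of ruminant trophoblast, secreted or not, had few reads or none. Of 45 genes in the files 28 had a count of 0 in all 8 libraries, among them IFNT2 and IFNT3, which encode interferon tau, the ruminant signal of maternal recognition of pregnancy, and CSH2, which encodes placental lactogen. All 3 TKDP and all 8 PRP genes were at 0. Per the paper, alignments of low mapping quality were removed before counting. Reads shared by close gene copies, which the IFNT, TKDP and PRP families may hold, could thus be lost, so a 0 there does not show absence. Of 20 genes named PAG, 14 were at 0 and the others apart from PAG1 had at most 4 counts in a library. The PAG genes are a family of near-identical copies, so their counts are uncertain. PAG1, with 3.71 to 9.12 CPM on MEF, is in the RefSeq table a gene of chromosome 14 that shares only its symbol with the family, whose own PAG1 is listed there as LOC281964.

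PTGS2, the inducible cyclooxygenase, was the one gene of the 6 tested in that list to be called on condition alone, in a fit where 0.724 percent of all tested genes were called as higher and 1.00 percent as lower. It had 0.192, 0.181, 0.330 and 0.407 CPM on MEF and 1.18, 2.35, 1.27 and 1.23 CPM in feeder-free conditions, without overlap, which gave a log2 fold change of 2.43 (SE 0.43, edgeR adjusted p = 0.0373). SSLP1 passed the filter as well, with 0.327 to 2.58 CPM on MEF and 0.664 to 2.21 CPM in feeder-free conditions, and was not called in either fit (edgeR adjusted p = 0.903 on condition alone). SLC2A3, a glucose transporter that trophoblast shares with many cells, fell in the paired fit by 1.30 on the log2 scale (edgeR adjusted p = 0.0138; 0.0909 on condition alone). PEG10, an imprinted gene needed for the placenta, had a count of 0 in both libraries of line A and 105 to 324 CPM in the other 6, and was called among lines (edgeR adjusted p = 1.37e-05) but not between matrices (adjusted p = 0.863).

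Cell types that share some of the 10 genes were checked by their own markers. No marker of surface ectoderm among 8 passed the count filter, and their sum was at most 0.475 CPM on MEF and 1.44 CPM in feeder-free conditions, with KRT5 and KRT4 at 0 in all libraries, PAX6 at most 0.330 CPM, and GRHL3 at 0.0582 ± 0.0675 and 0.648 CPM. Of 8 markers of primordial germ cells DAZL was at 0 in all libraries, PRDM14 was at 86.6 ± 22.9 CPM on MEF and 112 ± 27.9 CPM in feeder-free conditions, and KIT at 16.8 CPM in both. PRDM1, a repressor of somatic genes in germ cells, was the only one of the 5 tested to be called in the paired fit, as lower (log2 fold change -1.15, edgeR adjusted p = 0.00779, and 0.0759 on condition alone). Of all tested genes, 4.53 percent were called as lower in that fit. Of 8 amnion markers, of which HAND1 is also among the regulators, 5 were tested and 0 called on condition alone, and their sum of 0.781 to 152 CPM on MEF and 3.28 to 446 CPM in feeder-free conditions came mostly from IGFBP3 in lines A and E. All 5 lay above 0, as did 7960 of 15744 tested genes. Their median log2 fold change of 1.83 was that of BAMBI, which was lower in feeder-free conditions in line E (log2 ratio -0.94). IGFBP3 and POSTN were called as higher in the paired fit (edgeR adjusted p = 0.0304 and 0.0317), as were 5.52 percent of all tested genes. POSTN is a fibroblast marker here as well. Among 7 neural crest genes, which came in sum to 93.7 to 139 CPM on MEF and 68.8 to 108 CPM in feeder-free conditions, FOXD3 was at 25.4 and 29.1 CPM, and ETS1 at 41.1 and 30.9 CPM. SOX9 was called as lower in the paired fit (log2 fold change -1.15, edgeR adjusted p = 0.0213), as were 4.53 percent of all tested genes. SNAI2, with 0.125 and 0.554 CPM, was higher in feeder-free conditions without overlap, as were 6.21 percent of all tested genes. It was not called in either fit, at a difference of 2.12 on the log2 scale (edgeR adjusted p = 0.0789 on condition alone). Of 8 hypoblast markers GATA4 had at most 0.0376 CPM, COL4A1 was at 130 ± 29.8 and 124.5 CPM, and APOA1, which overlaps APOA4, was called as higher on condition alone (log2 fold change 1.53, edgeR adjusted p = 0.0349), as were 0.724 percent of all tested genes. The other 4 tested hypoblast genes lay below 0, and the median of the list was -0.54: FOXA2 was at -0.93, PDGFRA at -0.68, HNF4A at -0.54 and COL4A1 at -0.06, none of them called in either fit. Among 8 markers of the primitive streak TBXT had at most 0.231 CPM, EOMES rose in the paired fit by 1.61 on the log2 scale (edgeR adjusted p = 0.0307; 0.211 on condition alone), and GSC had 1.73 and 1.76 CPM. The part of these cell types in the level of KRT7 was not tested.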

How the data were processed

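The values deposited by the authors are raw counts on genes of 8 libraries. Per the paper, paired-end reads were trimmed (Trimmomatic), mapped with STAR to ARS-UCD2.0, cleared of optical duplicates (Picard) and of low mapping quality (Samtools), and counted with featureCounts (Subread 1.6.2 in the submitters' processing notes). Reads of a MEF library, not analysed here, that mapped to the bovine genome were subtracted from samples on MEF. Whether the deposited counts are from before or after this subtraction was not tested. Whether strand was used, and whether reads or pairs were counted, is not given in the sources used here.

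Of 32640 genes, 3 lacked values and were dropped. Counts were used as deposited in edgeR 4.0.16 under R 4.3.3 (filterByExpr, TMM, glmQLFit, glmQLFTest). The fit held condition alone, and p-values were adjusted by Benjamini-Hochberg over 15744 genes. Lines were compared with edgeR's F test of the line terms beside condition. SE is the log2 fold change over the root of F, and log2 CPM used a prior count of 2. The line letter names the same cell line in both conditions and so pairs the libraries: deviations from the condition mean correlated at 0.421 to 0.664 within lines and at -0.523 to 0.249 between lines. Each line counted as 1 biological replicate.

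The 10 genes, the gene lists and the tests were chosen with earlier results of these data known. Named from each list were the genes called on condition alone and the 2 with the highest mean CPM, and from the paralogues the highest of each family. Some listed genes are not reported here. Alternatives were RLE factors, no scaling, other filters, the likelihood ratio test, DESeq2 1.42.0, limma-voom (limma 3.58.1), the replicate block, no minimum fold change and each library left out. Halved counts, a thinned library and the replicate block without each line were chosen after seeing the data. Coordinates are from the RefSeq table of ARS-UCD2.0, which gives gene spans and no transcript lengths, so no level is given per kilobase, and shares of counts and the ranking by CPM also follow transcript length.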

Additional observations from a re-analysis of the deposited data

Results flagged for a closer look

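A search of 74 sets of 4 libraries for a single distant value found 4. Chance alone gives about 3.7 where values are normally distributed, which does not hold for counts near 0. The MEF library of line A had 36.6 CPM of KRT7, against 19.0 to 20.9 CPM in the other MEF libraries. The feeder-free library of line C had 2.35 CPM of PTGS2, against 1.18 to 1.27 CPM in the other feeder-free libraries. The MEF library of line D had 0.495 CPM of TFAP2B and 0.330 CPM of PAX6, a neural and surface ectoderm gene, both of which were at 0 in the other 3 MEF libraries. With 3 values at 0, the search flags any count in the remaining library.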

How the results depend on the processing

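The number of trophoblast lineage factors called between matrices was 0 with RLE factors, no scaling, no filter, limma-voom, any fold change allowed, and the thinned feeder-free library of line D. It was 1 with at least 10 counts in every library, with the likelihood ratio test and with halved counts, and 2 with DESeq2 and with the replicate block. Leaving out each library gave 0 to 1, and the replicate block without each line 0 to 2. KRT7 was the gene called in each of these but for GATA2 in DESeq2 and the replicate block, and its log2 fold change lay between 1.15 and 1.76 over the libraries left out. The number called among lines, 1, fell to 0 with at least 10 counts in every library, where GATA3 was not tested, and with line alone, where its adjusted p was 0.157 from edgeR. Leaving out each library gave 0 to 1. TFAP2C turned to -0.24 with the replicate block and to -0.55 with limma-voom, ranged from -0.61 to 0.58 over the libraries left out, and was -1.025 and -0.47 in the replicate block without line D and line C. GATA3 ranged from 0.15 to 1.54 and ELF3 from -0.052 to 0.42 over the libraries left out. Apart from GATA3 under that filter, the cause of these differences was not tested. Levels per kilobase were not run. No other call on the 7 genes differed with the replicate block. With at most 60 counts in a library, TFAP2A, TFAP2C and DLX3 had 95% intervals of log2 fold change that included 0 and were wider than that of KRT7. The same held for ELF3 and GATA3, which had up to 146 and 202 counts in a library.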

Other observations

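IGFBP3, which encodes a secreted binder of insulin-like growth factors and stood here in the list of amnion markers, was present in lines A and E and near or at 0 in lines C and D. It had 96.1 CPM in line A and 151 CPM in line E on MEF and 181 and 443 CPM in feeder-free conditions, whereas lines C and D had 0 CPM on MEF and 0.866 and 0 CPM in feeder-free conditions. Its difference among lines had an adjusted p of 4.48e-05 from edgeR's quasi-likelihood test. ISL1, a LIM homeobox factor of amnion and mesoderm, was also higher in lines A and E, at 2.26 and 0.747 CPM on MEF and 2.55 and 1.23 CPM in feeder-free conditions, against 0.0619 to 0.576 CPM in lines C and D (adjusted p among lines 0.0305 from edgeR), and overlaps the annotated gene LOC132343225. Not all amnion markers had that order. HAND1 was detected in lines C and D alone, at most at 0.226 CPM. BAMBI had its lowest line mean of log2 CPM in line E, at -2.68, and its highest level in the feeder-free library of line D, at 1.70 CPM. GATA3 and TEAD4 were higher in lines C and D. The labels do not say which lines came from early and which from full blastocysts, and the difference between these pairs of lines was not tested.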
